A study of Mus musculus with 14 samples.

Results

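Inhibitory immune receptors were followed in microglia sorted from mouse retina. The group holds 9 genes, Cd72, Cd300lf, Lilrb4a, Pilra, Cd33, Siglece, Lair1, Sirpa and Cd200r1, found by symbol among 35735 genes of the deposited table. Microglia, the resident macrophages of neural tissue, came from retinas of mice aged 12 weeks, and 1 library was made per retina from 100 to 300 lysed cells. Mice were homozygous for APOE E3 or APOE E4, alleles of apolipoprotein E. They received a sham injection or a microbead injection, a glaucoma model in which beads raise eye pressure by obstructing outflow. The 4 groups were APOE E3/E3 with sham injection (APOE E3 sham, n = 4), APOE E4/E4 with sham injection (APOE E4 sham, n = 4), APOE E3/E3 with microbead injection (APOE E3 microbead, n = 3) and APOE E4/E4 with microbead injection (APOE E4 microbead, n = 3). All carried 1 of these alleles on both chromosomes, so no wild-type group entered. How the alleles were made and the time from injection to collection are not given in the sources used here. The labels tell retinas apart but not animals, so a p-value measures the spread between these retinas.

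Inhibitory receptors of myeloid cells set the threshold at which a cell reacts. When a ligand engages them, Src-family kinases phosphorylate a short motif in the receptor's tail, the immunoreceptor tyrosine-based inhibitory motif (ITIM), which docks the phosphatases SHP-1, SHP-2 or SHIP1 and dampens signals of activating receptors. Some of their ligands mark healthy tissue, such as CD47 for SIRPα, CD200 for CD200R1 and sialic acids for the Siglecs CD33 and Siglec-E. Others are sialylated glycoproteins for PILRα, collagens and C1q for LAIR1, the semaphorin SEMA4D for CD72, and phosphatidylserine and ceramide for CD300LF. CD200R1 lacks an ITIM and signals through the adaptor DOK2. In neural tissue these receptors are best known from microglia and other macrophages, although neurons also make SIRPα, and CD72 is otherwise a B cell receptor.

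Libraries held 453429 to 730134 estimated reads, of which 38.4% to 65.1% fell on 12 predicted genes at satellite repeats, leaving 228690 to 449598 reads elsewhere and 697 to 1781 on the 9 receptors. The sort had taken CD11b+, Ly6c-, Fcrls+ cells, and all 12 microglial marker genes were detected in each group. Their summed level was 16640 ± 2070 CPM (read counts scaled to a common library size, here with TMM factors) in APOE E3 sham and 15196 ± 1311 in APOE E4 sham (SD, n = 4 each), and 9614 ± 2461 in APOE E3 microbead and 15690 ± 1344 in APOE E4 microbead (SD, n = 3 each). Markers of monocytes moved with the APOE E3 microbead group: the 16 listed genes summed to 1614, 839 and 326 CPM in its 3 libraries, to 77.5, 244 and 108 in APOE E4 microbead, and to between 76.1 and 113 in the 8 sham libraries. Most of that rise was Fn1, and Ly6c2, which encodes the antigen the sort gated out, had 17 reads in all libraries together. These are bulk samples, in which fewer cells of a type and less RNA per cell cannot be told apart.

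Levels between genes were compared as TPM, an abundance corrected for transcript length and scaled to a fixed total, and given as shares of the summed TPM of the 9 receptors in each library. After sham injection 3 receptors made up most of the total. Lair1, the collagen receptor, held 37.8% ± 1.68 in APOE E3 sham (SD, n = 4) and ranked first in all 4 libraries. Sirpa, the CD47 receptor, held 32.4% ± 2.97 and Cd33 held 20.007% ± 2.10, in places 2 and 3 in every library. The other 6 receptors shared the rest, each under 4% in every library of that group. Cd72 held 2.80% ± 1.37, Pilra 2.05% ± 0.81, Siglece 1.79% ± 0.43, Lilrb4a 1.60% ± 0.65 and Cd300lf 1.15% ± 0.58, and these neighbours overlapped within their spread. Cd200r1 was lowest on average, at 0.45% ± 0.36. In APOE E4 sham Lair1 (35.2% ± 3.72) and Sirpa (32.3% ± 4.38) overlapped and changed places between libraries, and Cd33 (19.4% ± 3.25) held place 3 in all 4.

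Microbead injection in APOE E3 retinas was compared with sham to describe the response of this genotype. Of the 8 receptors with enough reads for a test, 6 passed at an adjusted p under 0.05 in the edgeR quasi-likelihood test, where 5.19% of all 7609 genes tested passed. Cd72, Cd300lf, Lilrb4a and Pilra, all minor in sham retinas, rose, and Cd33 and Lair1, both abundant in sham, fell. Siglece, also minor in sham, and Sirpa, also abundant, did not pass. That makes 4 higher (3.52% of all genes) and 2 lower (1.67%). All 4 that rose were higher in every microbead library than in every sham library, as were 7.6% of all genes, and Cd33, Lair1 and Sirpa were lower without overlap, as were 5.53%. The median log2 fold change of the 8 was 1.10, beside -0.02 over all genes.

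**Figure D1:**
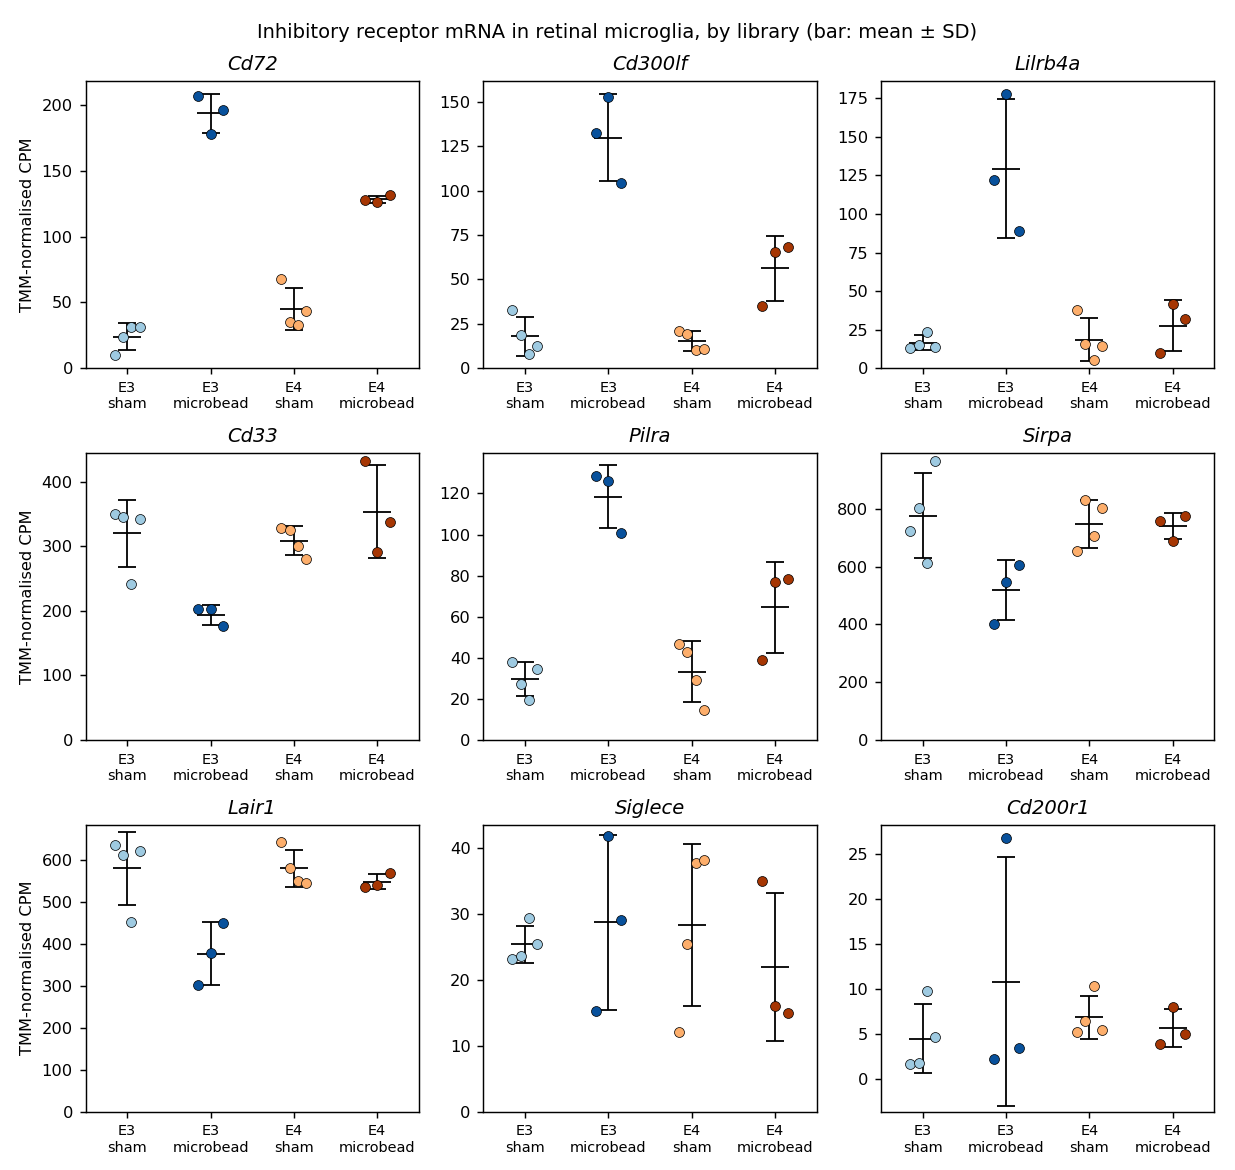
Levels of the 9 receptors in each library, as TMM-normalised CPM on linear axes, by group. Points are single retinas and bars are means ± SD (n = 4 sham, n = 3 microbead per genotype). Cd72, Cd300lf, Lilrb4a and Pilra stand highest in the 3 APOE E3 microbead libraries, and Cd33, Lair1 and Sirpa lie lower there than in the APOE E3 sham libraries.

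Cd72, a C-type lectin with an ITIM (ENSMUSG00000028459, chromosome 4, 43446462 to 43454628, minus strand, GRCm38), had 9.91, 23.6, 31.3 and 31.1 CPM in APOE E3 sham libraries 1 to 4 and 207, 178 and 196 CPM in APOE E3 microbead libraries 1 to 3. It had 67.4, 35.0, 32.5 and 43.5 CPM in APOE E4 sham and 128, 126 and 131 CPM in APOE E4 microbead. Neither microbead group overlapped with its sham group, and the 3 APOE E4 microbead libraries lay close together, all under the APOE E3 microbead libraries. The log2 fold change was 2.99 ± 0.28 in APOE E3 (SE, edgeR adjusted p = 1.11e-07) and 1.52 ± 0.27 in APOE E4 (adjusted p = 0.0104). The ratio of Cd72 to Cd33 within a library, in TPM and chosen after the values were seen, needs no scaling between libraries. It ran from 0.0434 to 0.207 in APOE E3 sham and from 1.57 to 2.51 in APOE E3 microbead, and from 0.226 to 0.273 in APOE E4 sham and 0.391 to 0.605 in APOE E4 microbead.

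Cd300lf, which binds lipids exposed on dying cells (ENSMUSG00000047798, chromosome 11, 115116214 to 115133992, minus strand), had 33.0, 18.6, 7.82 and 12.7 CPM in APOE E3 sham and 133, 153 and 104 in APOE E3 microbead. In APOE E4 it had 20.7, 19.1, 10.3 and 10.9 CPM in sham and 34.9, 65.5 and 68.1 in microbead. Microbead and sham libraries did not overlap in either genotype. The log2 fold change was 2.85 ± 0.34 in APOE E3 (SE, edgeR adjusted p = 4.65e-06) and 1.87 ± 0.37 in APOE E4 (adjusted p = 0.0275).

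Pilra, the inhibitory member of a receptor pair that binds sialylated glycoproteins (ENSMUSG00000046245, chromosome 5, 137821952 to 137836281, minus strand), had 38.0, 27.0, 19.5 and 34.6 CPM in APOE E3 sham and 128, 126 and 101 in APOE E3 microbead. It had 46.7, 43.0, 29.1 and 14.5 CPM in APOE E4 sham and 38.8, 76.7 and 78.1 in APOE E4 microbead. The groups stood apart in APOE E3, where the log2 fold change was 1.96 ± 0.31 (SE, edgeR adjusted p = 0.000165). In APOE E4, library 1 of the microbead group lay among the sham libraries, and the change of 0.95 ± 0.32 did not pass (adjusted p = 0.394).

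Lilrb4a, which encodes the ITIM receptor gp49B (ENSMUSG00000112148, chromosome 10, 51490956 to 51496611, plus strand), had 13.2, 15.2, 23.5 and 13.8 CPM in APOE E3 sham and 122, 178 and 88.8 in APOE E3 microbead. It had 38.0, 15.9, 5.13 and 14.5 CPM in APOE E4 sham and 9.69, 41.5 and 31.6 in APOE E4 microbead. The APOE E3 groups did not overlap, while the APOE E4 groups covered the same range. The log2 fold change was 3.01 ± 0.43 in APOE E3 (SE, edgeR adjusted p = 0.000183) and 0.61 ± 0.49 in APOE E4 (adjusted p = 0.918). Its values are uncertain because the neighbouring Lilr4b, which encodes gp49A and lacks the inhibitory motif, is near-identical in sequence, and because 86.2% of its reads were assigned to transcripts annotated as retained introns and 7.55% to coding ones. The summed level of both genes does not depend on how reads were split between them. It was 27.1 ± 9.82 CPM in APOE E3 sham, 32.6 ± 26.7 in APOE E4 sham (SD, n = 4 each), 209 ± 71.8 in APOE E3 microbead and 54.6 ± 24.7 in APOE E4 microbead (SD, n = 3 each).

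Cd33, a Siglec whose inhibitory signalling is established for the human protein (ENSMUSG00000004609, chromosome 7, 43524216 to 43544428, minus strand), had 350, 346, 242 and 342 CPM in APOE E3 sham and 202, 202 and 176 in APOE E3 microbead. It had 328, 325, 301 and 281 CPM in APOE E4 sham and 432, 291 and 337 in APOE E4 microbead. Every APOE E3 microbead library was under every other library, and the APOE E4 groups overlapped. The log2 fold change was -0.73 ± 0.20 in APOE E3 (SE, edgeR adjusted p = 0.0243) and 0.19 ± 0.19 in APOE E4 (adjusted p = 0.945). The call in APOE E3 was lost in 5 of 14 fits that left out 1 library (APOE E3 sham 1, 2 or 4, APOE E3 microbead 2 or 3) and in 13 of 27 alternatives in all, among them library totals, no filter on low counts, length offsets and a fit of only the libraries compared (adjusted p over all alternatives 0.00539 to 0.738).

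Lair1 (ENSMUSG00000055541, chromosome 7, 4003402 to 4063204, minus strand) had 636, 611, 452 and 621 CPM in APOE E3 sham and 302, 378 and 451 in APOE E3 microbead. It had 643, 581, 550 and 546 CPM in APOE E4 sham and 537, 541 and 568 in APOE E4 microbead. The APOE E3 groups did not overlap but met at sham library 3 and microbead library 3. The log2 fold change in APOE E3 was -0.62 ± 0.18 (SE, edgeR adjusted p = 0.0451), a call that held in 2 of 14 fits without 1 library (APOE E3 sham 3 or APOE E3 microbead 3) and was lost in 20 of 27 alternatives in all, including those named for Cd33 (adjusted p over all alternatives 0.0133 to 0.893). In APOE E4 it was -0.08 ± 0.18 (adjusted p = 0.992), with a 95% interval from -0.45 to 0.29.

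Sirpa (ENSMUSG00000037902, chromosome 2, 129592835 to 129632228, plus strand) had 725, 804, 614 and 966 CPM in APOE E3 sham and 402, 547 and 605 in APOE E3 microbead. It had 654, 833, 708 and 802 CPM in APOE E4 sham and 760, 690 and 775 in APOE E4 microbead. The APOE E3 microbead libraries lay under all others, but the log2 fold change of -0.58 ± 0.19 did not pass (SE, edgeR adjusted p = 0.0702). It passed without APOE E3 sham 3 (-0.69) and without APOE E3 microbead 3 (-0.71). In APOE E4 the change was -0.01 ± 0.19, with a 95% interval from -0.40 to 0.37.

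Siglece, a mouse Siglec with a canonical ITIM (ENSMUSG00000030474, chromosome 7, 43651070 to 43660161, minus strand), was at 25.4 ± 2.81 CPM in APOE E3 sham, 28.3 ± 12.3 in APOE E4 sham (SD, n = 4 each), 28.7 ± 13.3 in APOE E3 microbead and 21.9 ± 11.2 in APOE E4 microbead (SD, n = 3 each). Its groups overlapped throughout. The log2 fold changes of 0.24 in APOE E3 (95% interval -0.57 to 1.05) and -0.39 in APOE E4 (-1.25 to 0.47) leave room for moderate changes either way. Cd200r1 (ENSMUSG00000022667, chromosome 16, 44765736 to 44794978, plus strand) was under the minimum for a test. It had 11 reads over the APOE E3 sham libraries, 16 over APOE E4 sham, 10 over APOE E4 microbead and 28 over APOE E3 microbead, of which 25 came from library 2.

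In APOE E4 retinas 2 of 8 receptors passed after microbead injection, Cd72 and Cd300lf, where 0.223% of all genes did. These 2 were also the receptors without overlap between APOE E4 microbead and sham, all higher, as were 5.01% of all genes. Both calls ended without APOE E4 sham 2, 3 or 4 and without APOE E4 microbead 2 or 3. The edgeR adjusted p in these fits reached 0.0884 for Cd72 and 0.163 for Cd300lf, while both log2 fold changes kept their sign.

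**Figure D2:**
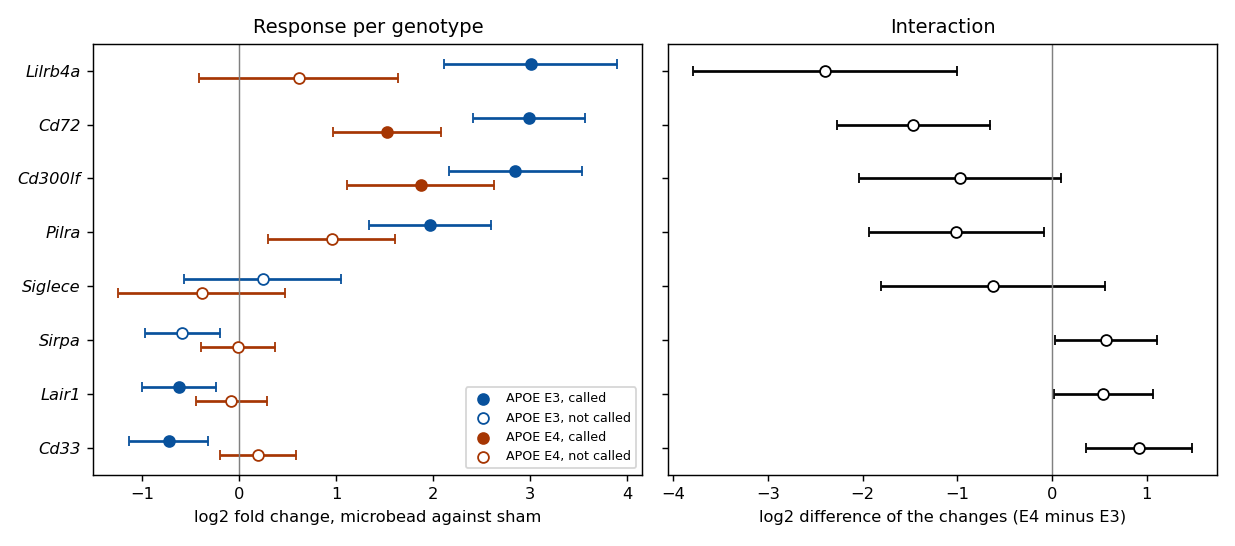
Log2 fold changes of the 8 receptors tested, microbead against sham in each genotype (left), and the difference of these changes, APOE E4 minus APOE E3 (right). Points are edgeR estimates, lines are 95% intervals, and filled points passed at an adjusted p under 0.05. The changes in APOE E4 lie closer to 0 than those in APOE E3 for every receptor except Siglece, and no difference of the changes passed.

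The interaction asks whether the response differed between genotypes. None of the 8 receptors passed with edgeR, where 0.092% of all genes did. At an unadjusted p under 0.05, 6 of 8 passed, as did 8.19% of all genes. The response of Lilrb4a was lower in APOE E4 by 2.39 on the log2 scale (95% interval of the difference -3.79 to -1.002, edgeR adjusted p = 0.215). That of Cd72 differed by -1.46 (-2.27 to -0.65, adjusted p = 0.208) and that of Cd33 by 0.92 (0.36 to 1.48, adjusted p = 0.226). DESeq2 called Cd72 and Cd33 (adjusted p = 0.0141 and 0.0170), and edgeR without the filter on low counts called Lilrb4a (adjusted p = 0.00330), so the call on a genotype difference in the response depended on the tool and on the filter. Over all alternatives the adjusted p ran from 0.0141 to 0.913 for Cd72, from 0.0170 to 0.965 for Cd33 and from 0.00330 to 0.913 for Lilrb4a.

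Comparing genotypes after microbead injection, 2 of 8 receptors passed, where 0.578% of all genes did. At an unadjusted p under 0.05, 7 of 8 passed, as did 9.8% of all genes. Lilrb4a was lower in APOE E4 microbead, with a log2 difference of -2.21 ± 0.44 (SE, edgeR adjusted p = 0.0194), and Cd33 was higher by 0.87 ± 0.21 (adjusted p = 0.0476), beside 0.355% of all genes lower and 0.223% higher. Cd300lf, at -1.20 ± 0.33, did not pass with edgeR (adjusted p = 0.108), but was called with DESeq2 (adjusted p = 0.0174), with limma-voom (0.0377) and with edgeR without the filter on low counts (0.0289), and its adjusted p ran from 0.0174 to 1 over all alternatives. Cd72, Cd300lf, Lilrb4a and Pilra were lower without overlap, as were 7.2% of all genes, and Cd33, Lair1 and Sirpa were higher, as were 7.32%. The Lilrb4a call ended without APOE E3 microbead 1 or 2 or APOE E4 microbead 1 or 3. The Cd33 call ended in 12 of 14 fits that left out 1 library, all but those without APOE E3 sham 3 or APOE E4 microbead 2. These values share libraries with the microbead comparisons above.

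To describe the genotype alone, APOE E4 sham and APOE E3 sham were compared. None of the 8 receptors passed with edgeR, DESeq2 or limma-voom, where 0.0131% of all genes did with edgeR, and 1 of 8 passed at an unadjusted p under 0.05, as did 4.4% of all genes. That gene was Cd72, higher in every APOE E4 sham library than in any APOE E3 sham library, as were 2.17% of all genes. Its log2 difference was 0.88 ± 0.29 (SE, edgeR adjusted p = 0.962). For the 3 abundant receptors the 95% intervals of the difference ran from -0.34 to 0.34 (Lair1), -0.41 to 0.30 (Sirpa) and -0.42 to 0.31 (Cd33).

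The make-up of the receptor transcripts was described within libraries, again as shares of summed TPM. Cd72, Cd300lf, Lilrb4a and Pilra together held 7.60% ± 0.40 in APOE E3 sham and 10.4% ± 3.43 in APOE E4 sham (SD, n = 4 each). In APOE E3 microbead they held 46.5% ± 5.59 and in APOE E4 microbead 20.9% ± 5.06 (SD, n = 3 each). Lair1, Sirpa and Cd33 went from 90.2% to 50.6% in APOE E3 and from 86.9% to 77.2% in APOE E4, as group means. Cd72 alone held 17.1% to 22.7% in the APOE E3 microbead libraries, in places 1 to 3, and 10.2% to 10.7% in APOE E4 microbead, in place 4 in all 3. Both the grouping and its direction follow from the tests above, so these shares are a description.

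**Figure D3:**
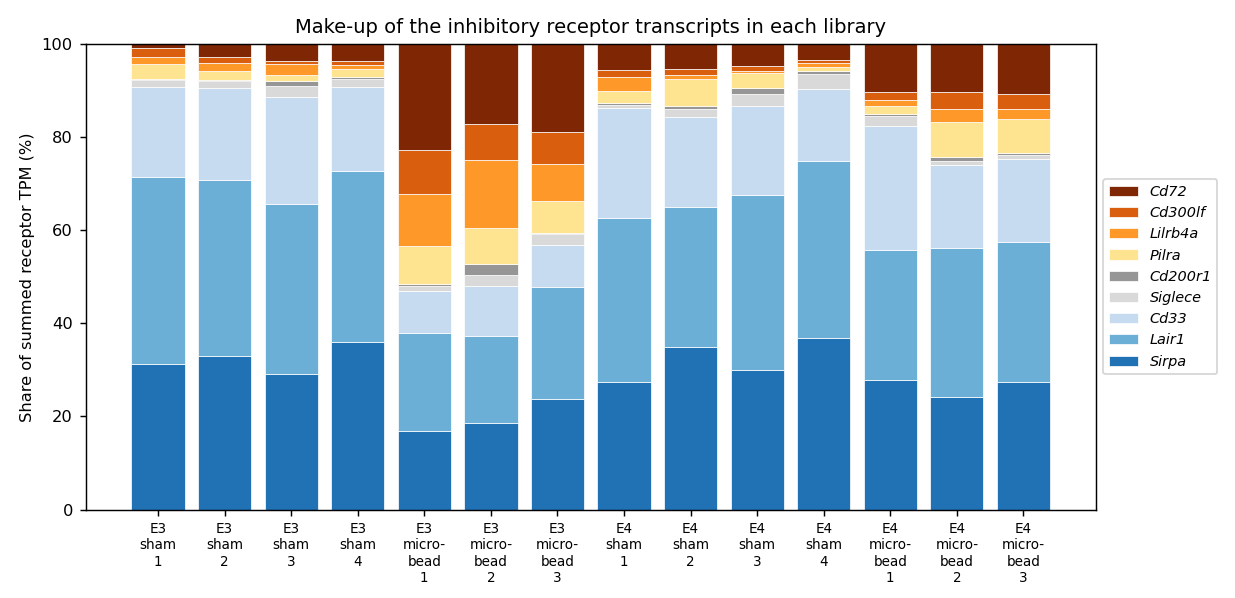
Share of each receptor in the summed TPM of the 9 receptors, in percent, for each of the 14 libraries. Yellow to brown bars are Cd72, Cd300lf, Lilrb4a and Pilra, which together hold 46.5% on average in APOE E3 microbead and 20.9% in APOE E4 microbead. Blue bars are Sirpa, Lair1 and Cd33.

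Promoter sequence was read for 6 receptors from RefSeq (GRCm38.p6), as the 250 bases before the RefSeq start. Those of 2 receptors that rose and 2 that fell are shown, to compare genes that moved in opposite directions. For Cd33 the RefSeq start lies inside the gene span given above, not at its upstream end. Capitals mark GAGGAA, the core of sites bound by ETS factors such as PU.1, a master regulator of microglia, on either strand (TTCCTC on the printed one). All 4 genes lie on the minus strand, and each sequence is written 5′ to 3′ in the gene's direction, for chr4:43454627-43454876, chr11:115133993-115134242, chr7:43533172-43533421 and chr7:4063205-4063454.
Cd72: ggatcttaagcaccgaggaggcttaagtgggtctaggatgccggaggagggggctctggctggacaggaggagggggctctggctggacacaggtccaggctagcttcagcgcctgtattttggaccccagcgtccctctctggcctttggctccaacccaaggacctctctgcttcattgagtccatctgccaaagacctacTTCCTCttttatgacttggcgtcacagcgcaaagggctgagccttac
Cd300lf: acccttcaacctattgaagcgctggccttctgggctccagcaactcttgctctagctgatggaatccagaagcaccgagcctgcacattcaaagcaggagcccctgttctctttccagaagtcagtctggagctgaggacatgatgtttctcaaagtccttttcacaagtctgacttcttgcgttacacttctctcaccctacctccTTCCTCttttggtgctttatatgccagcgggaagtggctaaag
Cd33: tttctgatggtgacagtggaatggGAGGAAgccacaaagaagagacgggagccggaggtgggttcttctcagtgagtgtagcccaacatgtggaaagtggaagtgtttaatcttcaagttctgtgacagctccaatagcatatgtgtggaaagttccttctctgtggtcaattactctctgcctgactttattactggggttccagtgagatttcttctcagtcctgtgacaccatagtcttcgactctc
Lair1: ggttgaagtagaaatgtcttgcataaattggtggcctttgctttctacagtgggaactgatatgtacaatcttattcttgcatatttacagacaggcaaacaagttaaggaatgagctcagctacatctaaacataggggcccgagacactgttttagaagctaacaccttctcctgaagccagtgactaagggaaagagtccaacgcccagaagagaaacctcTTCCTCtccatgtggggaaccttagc

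GAGGAA was present in all 6 promoters read, and in 23.4% of 32536 promoters of the same length. In Cd72 it began 47 bases before the start, in Cd300lf 43, in Lair1 26, in Pilra 211 and in Cd33 226, and Siglece had 3 matches, which began 87, 36 and 11 bases before it. It was therefore shared by receptors that rose, fell and did neither. The AP-1 motif TGANTCA was in 0 of the 6 (6.73% of all promoters, both strands searched). A match is a description of these letters and not a site shown to be used.

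Genes around the receptors were read from lists of other inhibitory receptors, ITIM kinases and effectors, activating partners, ligands and sialic acid enzymes. Over all lists 62 genes other than the receptors were tested. In APOE E3, 10 of them passed (16.1%, beside 5.19% of all genes), and in APOE E4 1 did (1.61%, beside 0.223%). Of 25 other inhibitory receptors 16 were tested, and 3 rose and 1 fell in APOE E3, where 3.52% of all genes rose and 1.67% fell. Fcgr2b, the inhibitory receptor for IgG, went from 154 ± 34.0 CPM (SD, n = 4) to 399 ± 108 (SD, n = 3), a log2 fold change of 1.39 (edgeR adjusted p = 0.000198), and it also rose in APOE E4 (1.04, adjusted p = 0.0457), a call lost in 9 of 14 fits that left out 1 library. Lilr4b rose by 2.90 (edgeR adjusted p = 0.000889). It is counted on this list and among the 10 above, although gp49A lacks the inhibitory motif. Its reads are also hard to separate from those of Lilrb4a, so the 2 genes are not independent counts. Lag3, a checkpoint receptor, rose by 0.85 (adjusted p = 0.0201), not called without APOE E3 sham 1, 2 or 3 or APOE E3 microbead 3. Vsir, which encodes the checkpoint protein VISTA, fell by 0.89 (adjusted p = 0.00441). The list's median log2 fold change was 0.25 in APOE E3 and 0.52 in APOE E4, beside -0.02 and -0.0040 over all genes.

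Among 6 ITIM kinases tested of 8, only Fgr passed in APOE E3, a Src-family kinase of myeloid cells. It went from 4.40 ± 3.73 CPM in APOE E3 sham (SD, n = 4) to 55.6 ± 12.4 in APOE E3 microbead (SD, n = 3), and it was at 15.3 ± 2.39 in APOE E4 sham and 16.5 ± 2.54 in APOE E4 microbead. Its log2 fold change was 3.75 in APOE E3 (edgeR adjusted p = 5.46e-06) and 0.11 in APOE E4. The interaction passed (-3.64, edgeR adjusted p = 0.0155). It did not pass without APOE E4 sham 1 or 2, APOE E3 microbead 2 or APOE E4 microbead 1 (adjusted p up to 0.0646). The level in APOE E3 sham was near that of single reads. Fgr thus met the count filter mainly through APOE E3 microbead, where it was high. The sizes of its change and of its interaction are uncertain. Of 12 ITIM effectors tested of 15, Pstpip1, an adaptor that recruits the phosphatase PTPN12, rose by 1.35 in APOE E3 (adjusted p = 0.0107) and was lower in APOE E4 than APOE E3 microbead by 2.12 (adjusted p = 0.00514). The first call ended without APOE E3 microbead 2, and the second without that library or APOE E4 microbead 3. The phosphatases and their docking partners on this list did not pass, and its median log2 fold change was -0.20 in APOE E3, beside -0.02 over all genes. That of the kinases was 0.31.

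Of 21 activating partners 8 were tested, of which 1 fell in APOE E3, with a list median of 0.40 on the log2 scale. Siglech, an activating-type Siglec of microglia, fell in APOE E3 from 778 ± 86.2 to 343 ± 110 CPM (log2 fold change -1.18, edgeR adjusted p = 0.000262) and was higher in APOE E4 than APOE E3 microbead (1.17, adjusted p = 0.00379). Tyrobp, the adaptor shared by many activating receptors, did not pass in either genotype with edgeR (0.36 and -0.68, adjusted p = 0.302 and 0.102). It was highest in APOE E4 sham, at 920 ± 63.7 CPM, against 546 ± 70.6 in APOE E3 sham (SD, n = 4 each). That log2 difference of 0.75 did not pass either (edgeR adjusted p = 0.148). Tyrobp was at 699 ± 35.8 CPM in APOE E3 microbead and 574 ± 32.1 in APOE E4 microbead (SD, n = 3 each). Its lower level in APOE E4 microbead was called in 4 of 27 alternatives, DESeq2, minimum count 30, only the libraries compared, and without both APOE E3 microbead 1 and 2 (adjusted p over all alternatives 0.00173 to 0.869). Its interaction was called in 3, DESeq2, minimum count 30 and without APOE E3 microbead 3 (0.000364 to 0.913, and 0.0740 as fitted). Of 18 ligand genes found there, 8 were tested in these sorted cells, so most ligands, which neighbouring cells make, could not be read. Vim (5.29, edgeR adjusted p = 0.000269) and Fn1 (4.77, adjusted p = 0.00978) rose in APOE E3, and the list's median was 0.27. Neither is named among the ligands above, and binding of their products to these receptors was not tested. Vim was at 2.49 ± 1.98 CPM in APOE E3 sham (SD, n = 4), near the level of single reads, and at 112 ± 55.9 in APOE E3 microbead (SD, n = 3). In APOE E4 it was at 6.13 ± 7.01 in sham and 13.9 ± 10.1 in microbead. Vim thus met the count filter mainly through the group where it was high, and the size of its change is uncertain. Fn1 is also on the monocyte list, and without APOE E3 microbead 1 its log2 fold change was 3.64. Of 12 sialylation enzymes tested of 20, St3gal6, a sialyltransferase, fell by 1.30 in APOE E3 (adjusted p = 0.0104), and none passed in APOE E4. The list's median was -0.53 in APOE E3 and -0.16 in APOE E4. Without APOE E3 microbead 1 or 2 the St3gal6 change was -1.03 or -1.01 and did not pass, and without library 3 it was -2.05.

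**Figure D4:**
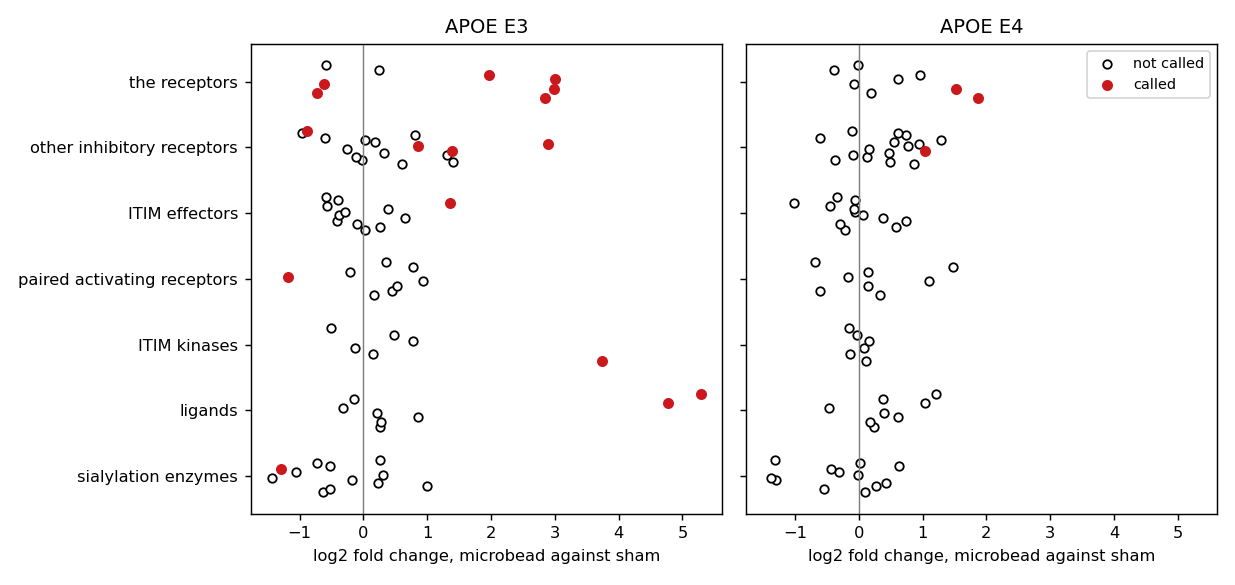
Log2 fold changes, microbead against sham, of the genes tested in each list, with APOE E3 on the left and APOE E4 on the right. Each point is a gene and filled points passed at an adjusted p under 0.05. Of 62 genes outside the receptors themselves, 10 passed in APOE E3 (16.1%, beside 5.19% of all genes) and 1, Fcgr2b, in APOE E4 (1.61%, beside 0.223%). The 10 include Lilr4b, whose reads are hard to separate from those of Lilrb4a.

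The genes most like each receptor were ranked by Pearson's r of log2 CPM over the 14 libraries, among 7213 genes. These libraries share their groups, so the values describe the pattern and carry no test. Cd300lf and Pilra were each other's nearest gene (r = 0.946). Cd72 was nearest to Axl, a receptor kinase for dead-cell uptake (0.920), Ctsb, a lysosomal protease (0.919), and Cd63 (0.917). Lilrb4a was nearest to Aldoa, Fam20c and Anxa2 (0.932, 0.928 and 0.925). Of the abundant receptors, Sirpa lay near Kcnip3 and the fractalkine receptor gene Cx3cr1 (0.927 and 0.919), Cd33 near Fermt3 and Sall1, a microglial transcription factor (0.920 and 0.872), and Lair1 near Git2 and Smpd5 (0.944 and 0.939). The nearest genes to Siglece reached 0.828 at most.

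The monocyte markers described above were highest in APOE E3 microbead, where Cd72, Cd300lf, Lilrb4a and Pilra were highest too. The part of the markers in the results was not tested. They ranged from 326 to 1614 summed CPM in APOE E3 microbead, where Chil3 averaged 53.2 CPM and Ccr2 69.0, against 1.55 and 11.6 in APOE E3 sham. APOE E3 microbead 3 and APOE E4 microbead 1 had the lowest marker sum of their groups. Cd300lf, Lilrb4a and Pilra were lowest of their group in these same libraries, at 104, 88.8 and 101 CPM in the first and 34.9, 9.69 and 38.8 CPM in the second. Cd72 was in the middle of its group in both, at 196 and 128 CPM. The rest of the order differed by receptor. APOE E3 microbead 1 and 2 had 1614 and 839 summed CPM. Cd300lf was at 133 and 153 CPM there, Lilrb4a at 122 and 178, and Pilra at 128 and 126. APOE E4 microbead 2 and 3 had 244 and 108 summed CPM. Cd300lf was at 65.5 and 68.1 CPM in those, Lilrb4a at 41.5 and 31.6, and Pilra at 76.7 and 78.1. With APOE E3 microbead 3 as the only library of its group, the log2 fold changes were 3.02 for Cd72 and 2.53 for Cd300lf. They were 2.46 for Lilrb4a, 1.74 for Pilra, -0.86 for Cd33 and -0.35 for Lair1. That library still had 326 summed CPM of monocyte markers, against 76.1 to 113 in the sham libraries. The lone library is assumed in that fit to vary like the other groups. Its calls have little power and do not sort the receptors by their tie to the markers. Over all alternatives the highest adjusted p was 0.0121 for Cd72 and 0.0195 for Cd300lf, and the range was 8.62e-17 to 0.0573 for Lilrb4a and 1.06e-08 to 0.314 for Pilra. B cell markers stood lower in APOE E3 microbead (123 ± 20.6 CPM, SD, n = 3) than in APOE E3 sham (306 ± 15.1, SD, n = 4), and their part in the results was not tested either.

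**Figure D5:**
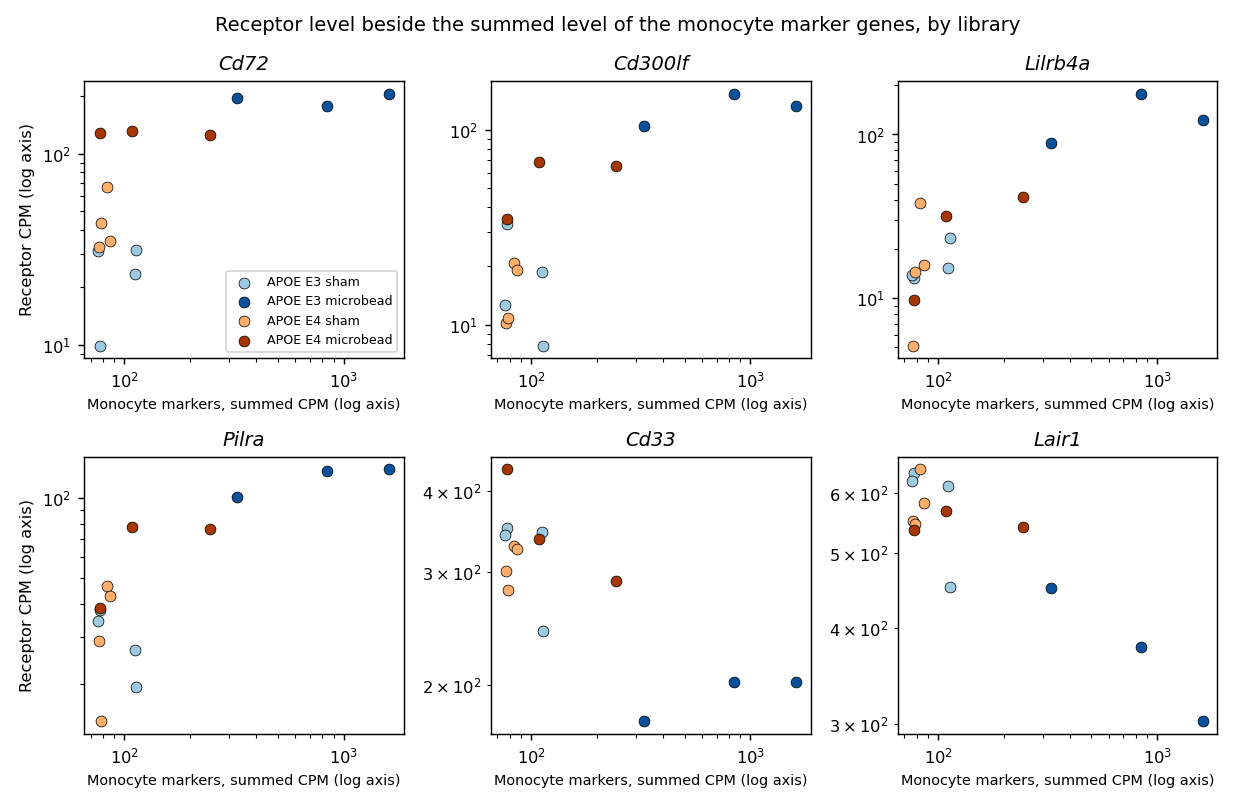
Level of 6 receptors in CPM (vertical) beside the summed CPM of the 16 monocyte marker genes (horizontal), each point 1 library, both axes logarithmic. The 3 APOE E3 microbead libraries stand to the right, at 326 to 1614 summed CPM. Cd72 is between 126 and 131 CPM in the 3 APOE E4 microbead libraries, whose marker sums run from 77.5 to 244, while Cd300lf, Pilra and Lilrb4a are lowest, at 34.9, 38.8 and 9.69 CPM, in the one with the lowest sum.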

How the data were processed

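RNA of sorted microglia was sequenced as 14 libraries. The submitters' processing notes name the build mm10 and the tools Salmon 1.4.0, R 4.0.3 and DESeq2 1.30.1. The files deposited by the authors hold estimated counts per transcript with effective lengths, per the file headers, and the deposited series table holds TPM per gene. Estimated counts were summed per gene with GENCODE M21 (116023 of 116945 transcripts matched) and rounded. TPM recomputed from each library agreed within 1% with its own column of the series table for 99.2% to 99.4% of genes, which checked the labels.

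Genes passed filterByExpr by group (minimum count 10, minimum total 15), leaving 7609. Groups were compared with the edgeR 4.0.16 quasi-likelihood test (R 4.3.3, robust, TMM scaling, two-sided), 4 group means over all 14 libraries, with Benjamini-Hochberg adjustment across genes and a threshold of 0.05. The script was tested on simulated counts. SE derive from the F statistic, 95% intervals from its degrees of freedom. CPM compares libraries and TPM compares genes within a library, since satellite reads distort TPM between libraries. With 1 read worth 1.07 to 2.18 CPM, low genes are read from few molecules.

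The receptors and gene lists were chosen with earlier results of these data known. Named genes are all 9 receptors and, from each list, up to 4 genes with the smallest unadjusted p. Alternatives were DESeq2 1.42.0, limma-voom and limma on log2 TPM (limma 3.58.1, pseudocounts 1 and 0.1), other scalings and filters, length offsets, a replicate block, and libraries left out. Retina numbers gave no sign of pairing. Same-numbered libraries' deviations from their group means correlated at -0.144 to 0.0985, and other-numbered ones at -0.206 to 0.255. With 3 or 4 libraries per group these values cannot show that samples were unpaired.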

Additional observations from a re-analysis of the deposited data

Results flagged for a closer look

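Within APOE E3 sham, library 3 stood apart from the other 3 for 2 receptors. Cd33 was at 242 CPM there and between 342 and 350 CPM in the others, and Lair1 was at 452 CPM against 611 to 636 CPM. Both gaps passed Dixon's test at 95%, 2 of 18 combinations of receptor and sham group checked, where chance flags about 1 in 20. The summed level of rod photoreceptor markers was also highest in that library, at 1795 CPM, against 240, 311 and 1238 CPM in libraries 1, 2 and 4. Library 4, with 1238 CPM of rod markers, had Cd33 at 342 CPM and Lair1 at 621 CPM. APOE E4 sham 1, with 1418 CPM of rod markers, had the highest Cd33 (328 CPM) and Lair1 (643 CPM) of its group. The part of rod RNA in the lower values was not tested. Without APOE E3 sham 3 the log2 fold changes in APOE E3 were -0.84 for Cd33 and -0.77 for Lair1, and both calls held.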

How the results depend on the processing

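No sign of a called value turned in any alternative, and of 1062 values for the receptors under alternatives, 87 lost and 10 gained a call. In APOE E3, 6 receptors were called, 4 to 7 when 1 library was left out, 7 with DESeq2 or minimum count 30, 4 (none lower) with library totals, no filter, length offsets, only the libraries compared or the replicate block, 3 with limma on log2 TPM (both pseudocounts) and 2 without both APOE E3 microbead 1 and 2. Cd72 and Cd300lf were called in all 27 alternatives, while Cd33 lost its call in 13 and Lair1 in 20. In APOE E4, 2 were called, 0 to 2 with 1 library left out, 1 with limma-voom or the replicate block, and 0 with library totals, length offsets or either log2 TPM setting. The interaction went from 0 called to 1 without the count filter and 2 with DESeq2. Between genotypes after microbead, 2 were called, 0 to 2 with 1 library left out, 3 with DESeq2 or limma-voom (Cd300lf added), 1 with library totals, without satellite genes or with only the libraries compared, and 0 with log2 TPM, length offsets, the replicate block or without both APOE E3 microbead 1 and 2. After sham 0 were called throughout. The block changed no other count of receptors by over 1.5 times. The cause of these differences was not tested.

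Calls over all genes varied too: 13 to 476 in APOE E3 (395 as reported), 2 to 53 in APOE E4 (17), 0 to 68 for the interaction (7), 0 to 12 after sham (1) and 2 to 121 after microbead (44), with 1409 to 28197 genes tested. Library totals and TPM also moved the median of all genes: in APOE E4 by -0.22 and -0.32 (log2), and after sham by 0.16 and 0.22. Depth left Cd200r1 untested, and standard errors were largest for Lilrb4a in each of the 5 comparisons.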
